A study of Mus musculus with 4 samples.

Results

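DMSO-treated ESCs were compared with untreated ESCs of the mouse R1 line, with 1 RNA-seq library each, over the genes with at least 1 TPM (a read count scaled for gene length and library size) in either library. These were 12945 of the 24421 gene entries in the table of the series. The DMSO culture, the vehicle control of an inhibitor experiment, was kept for 48 h in ESC medium with LIF. The ESC culture was the starting point of a differentiation experiment. By the methods it was freed of feeder cells and collected after about a day in ESC medium with 15% FBS, 1000 U/mL LIF, 1 µM PD0325901, an inhibitor of the kinase MEK, and 3 µM CHIR99021, an inhibitor of the kinase GSK3. The label of the ESC library names ESC medium and LIF only, and the inhibitors are given in the methods and in the protocol attached to the EpiLC library. The series has 2 more libraries, 1 of ESCs given EED226 at 10 µM, an allosteric inhibitor of Polycomb repressive complex PRC2, in the LIF medium of the DMSO culture, and 1 of EpiLCs (epiblast-like cells) 72 h after induction.

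Mouse ESCs self-renew in LIF, which acts through STAT3, but autocrine FGF4 drives ERK signaling that moves them towards differentiation. In serum with LIF the cells fluctuate between a naive state and a state that resembles the later epiblast, and this is called metastable. Blocking MEK silences the ERK output, and inhibiting GSK3 stabilizes β-catenin and relieves repression by the factor TCF7L1. Cells held with both inhibitors are more uniform, and this is called the ground state.

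The cultures differed in DMSO, the inhibitors, the time in culture and the experiment, and these cannot be told apart with 1 library each. The library headers carry S numbers that adjoin for ESC and EpiLC and adjoin for DMSO and EED226, but lie apart between these groups. What the numbers stand for is not stated, and a batch cannot be told apart from the culture either. The labels and methods do not say whether feeders were also removed from the DMSO culture, nor how much DMSO it held. The libraries held 38863803 reads on genes for DMSO and 47622558 for ESC. No test was possible and no p-value is given. A ratio is the DMSO TPM divided by the ESC TPM, and its 95% counting interval comes from the exact split of the reads of a gene between the libraries, so it covers counting error only and not the spread between cultures. A gene was called higher or lower at a 2-fold difference after adding 0.1 TPM to both values. All 12 markers of ESC identity were present in both libraries, and 11 of them lay within 2-fold. *Pou5f1*, which encodes OCT4, was at 2142 TPM in DMSO and 2222 TPM in ESC, and *Sox2*, its partner, was at 397 TPM in DMSO and 310.4 TPM in ESC. The exception was *Nanog*, described with the naive factors, and 2 markers were lower once a trend of the ratio with gene length was removed.

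Of the 12945 genes, 2018 were at least 2-fold higher in DMSO, or 15.6%, and 1167 were at least 2-fold lower, or 9.02%. These shares are the background for the counts that follow. Differences past 10-fold were found for 169 genes higher in DMSO and 141 lower. A majority, 7334 genes or 56.7%, differed by less than 1.5-fold. Abundant genes were called less often, with 72 of 2191 genes higher and 105 lower once 100 TPM in either library was required. At the limit of 1 TPM, *Tssk6* (1.00 TPM in DMSO and 0.684 TPM in ESC) and *Rbakdn* (0.179 TPM in DMSO and 1.00 TPM in ESC) were just inside, and *Adcy9* (0.999 TPM in DMSO and 0.840 TPM in ESC) was just outside.

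The median log2 ratio was 0.154 over the 11452 genes with at least 1 TPM in both libraries, so the typical gene had a slightly higher TPM in DMSO. TPM is a share of the library, so this median does not measure an absolute amount. With ratios centred on that median, 1664 genes were at least 2-fold higher and 1391 lower, and the higher genes made up 54.5% of the calls in place of 63.4%. The ratio also moved with gene length. Its median log2 value was -0.15 in the shortest of 10 bins of gene length and 0.59 in the longest. With the trend along length removed, 1572 genes were higher and 1360 lower, so that higher genes made up 53.6% of the calls.

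**Figure D1:**
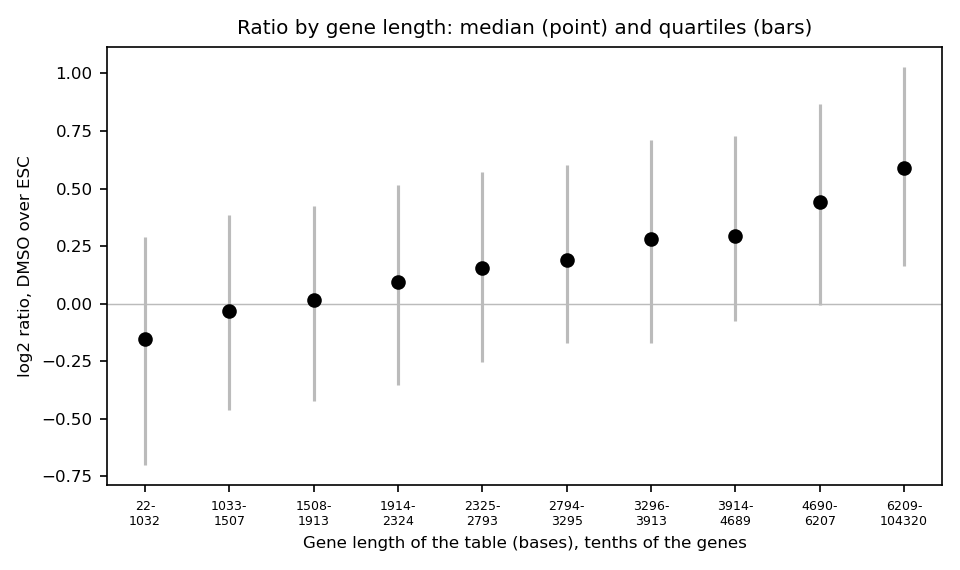
Median log2 ratio of DMSO over ESC (points) and its quartiles (bars) for the genes with at least 1 TPM in either library, in 10 bins of gene length as given in the table. The median lies at -0.15 in the shortest bin and 0.59 in the longest.

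**Figure D2:**
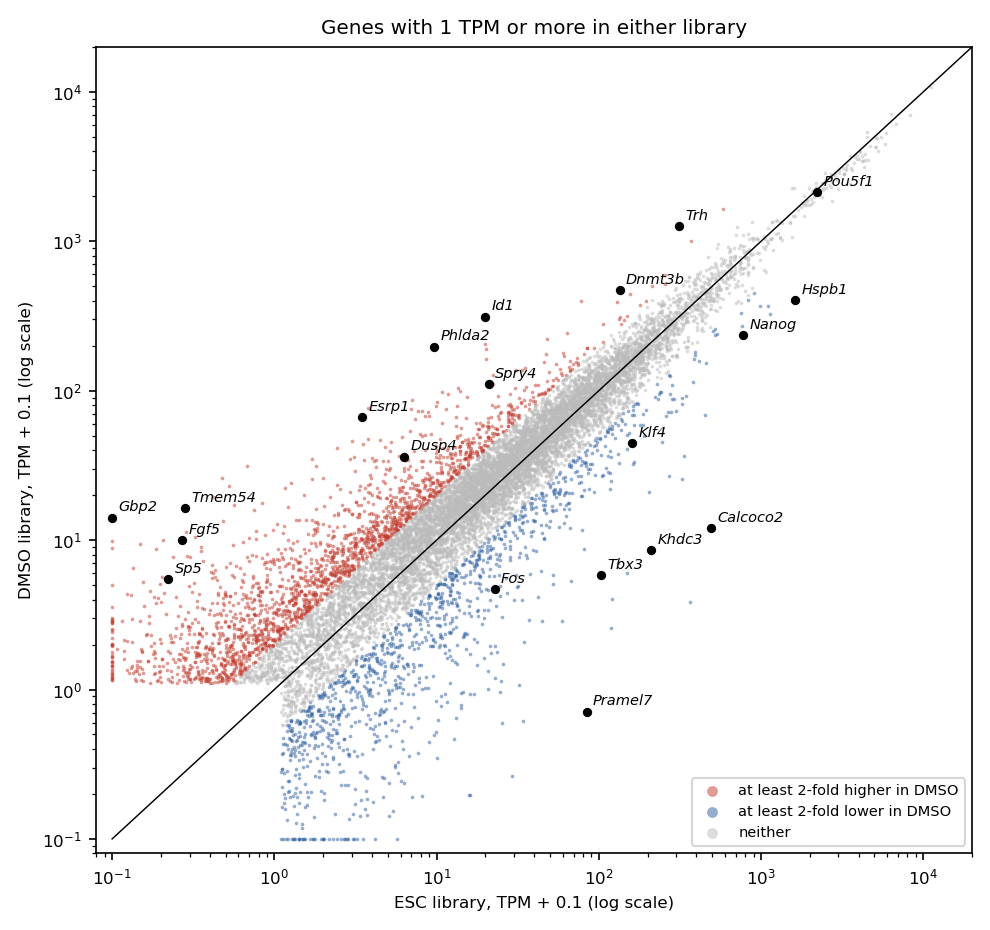
TPM of each of the 12945 genes in the DMSO library (vertical axis) and the ESC library (horizontal axis), both after adding 0.1 TPM and on log scales, with 1 point per gene. Red points are the 2018 genes at least 2-fold higher in DMSO, blue points the 1167 at least 2-fold lower, and *Calcoco2*, *Pramel7* and *Tbx3* lie far below the line of equal values.

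The feedback genes of the ERK pathway were higher in DMSO. Of 23 listed ERK targets, 21 were measured, 10 were at least 2-fold higher and 2 were lower, with a median log2 ratio of 0.95 against 0.18 for all genes. Centring on the median gene gave 9 higher and 3 lower, and removing the trend along gene length gave 10 and 3. The higher members were mainly genes that limit the pathway. *Dusp4*, a nuclear phosphatase of ERK, was at 36.2 TPM in DMSO and 6.23 TPM in ESC, a ratio of 5.81 (95% counting interval 5.17 to 6.53). *Dusp6*, a cytoplasmic ERK phosphatase, was at 80.1 TPM in DMSO and 27.6 TPM in ESC. *Spry4*, an inhibitor of receptor tyrosine kinase signaling, was at 110.6 TPM in DMSO and 20.8 TPM in ESC. Its relatives *Spry1* and *Spry2* had ratios of 2.42 and 2.17, and *Spred1* and *Spred2*, which hold RAS signaling in check, had ratios of 4.16 and 2.47.

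*Dusp5*, another nuclear ERK phosphatase, was at 17.0 TPM in DMSO and 3.20 TPM in ESC, a ratio of 5.31 (4.19 to 6.80). *Fosl1*, which encodes the AP-1 subunit FRA1, had the largest ratio of the list at 10.7 (6.34 to 19.3), with 4.26 TPM in DMSO and 0.399 TPM in ESC. *Myc* was at 105.9 TPM in DMSO and 35.7 TPM in ESC. *Fos* and *Fosb*, immediate early genes of the AP-1 family, were the lower members. *Fos* was at 4.61 TPM in DMSO and 22.7 TPM in ESC, a ratio of 0.203 (0.172 to 0.238), and *Fosb* was at 0.662 TPM in DMSO and 3.03 TPM in ESC. *Egr1* was at 61.1 TPM in DMSO and 116.7 TPM in ESC, short of 2-fold, and *Egr2* and *Egr3* stayed under 1 TPM in both.

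The ETS factors that serve as ERK outputs in ESCs differed little. *Etv5* was at 254 TPM in DMSO and 199 TPM in ESC, *Etv4* was at 85.7 TPM in DMSO and 67.2 TPM in ESC, and *Ccnd1*, the G1 cyclin, was at 124 TPM in DMSO and 99.7 TPM in ESC. The ERK list thus split into feedback phosphatases and Sprouty genes with high ratios, ETS factors with ratios of 1.28, and *Fos* and *Fosb* with low ratios. This grouping was made after the values were seen.

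Promoter windows from RefSeq (GRCm38.p6, 250 bases before to 50 bases after the start) are given for 4 genes with higher values in DMSO. *Dusp5* was chosen by rule from the ERK targets with the highest ratios. *Fosl1* and *Dusp4* were chosen by the same rule but had no window to search, so they are only named. Another 13 genes were searched after their values were seen, and 11 of them had a window. The windows of *Fgf5*, *Sp5* and *T* are shown because they held a match. The other 8 genes, *Dusp6*, *Spry1*, *Spred1*, *Nkd2*, *Dnmt3b*, *Klf4*, *Nanog* and *Esrrb*, had 10 windows with no match to any of the motifs. Capitals mark matches, on either strand, to TCF/LEF (CTTTGA), ETS (CCGGAA) and CArG box motifs, the last being the binding sequence of SRF. AP-1 (TGAGTCA), CRE (TGACGTCA) and STAT (TTCCNGGAA) motifs were also searched and had no match in these 4 windows. The lines give chr19:53528895-53529194 (plus strand), chr5:98253934-98254233 (plus), chr2:70474673-70474972 (plus) and chr17:8434173-8434472 (plus).
Dusp5: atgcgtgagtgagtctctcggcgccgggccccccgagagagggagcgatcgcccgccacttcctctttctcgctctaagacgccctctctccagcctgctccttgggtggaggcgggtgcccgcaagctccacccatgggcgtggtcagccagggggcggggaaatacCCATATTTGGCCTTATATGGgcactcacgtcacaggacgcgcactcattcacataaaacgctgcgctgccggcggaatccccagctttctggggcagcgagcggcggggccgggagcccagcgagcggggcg
Fgf5: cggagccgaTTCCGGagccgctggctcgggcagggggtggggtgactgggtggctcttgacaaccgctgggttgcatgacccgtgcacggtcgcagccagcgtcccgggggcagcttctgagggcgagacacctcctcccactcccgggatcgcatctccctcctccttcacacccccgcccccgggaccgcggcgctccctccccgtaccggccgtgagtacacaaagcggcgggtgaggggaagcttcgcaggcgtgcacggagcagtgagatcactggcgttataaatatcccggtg
Sp5: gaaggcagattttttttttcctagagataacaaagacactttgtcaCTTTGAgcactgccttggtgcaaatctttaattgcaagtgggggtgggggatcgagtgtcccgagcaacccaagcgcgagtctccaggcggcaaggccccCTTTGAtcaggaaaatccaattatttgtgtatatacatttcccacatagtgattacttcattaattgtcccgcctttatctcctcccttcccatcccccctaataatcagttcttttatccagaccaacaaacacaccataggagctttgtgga
T: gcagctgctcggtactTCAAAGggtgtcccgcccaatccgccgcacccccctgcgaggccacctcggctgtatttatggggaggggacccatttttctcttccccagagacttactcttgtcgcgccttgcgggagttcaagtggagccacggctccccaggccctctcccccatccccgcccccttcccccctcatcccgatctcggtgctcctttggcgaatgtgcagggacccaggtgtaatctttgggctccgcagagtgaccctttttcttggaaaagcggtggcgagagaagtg

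The *Dusp5* window held 2 CArG boxes side by side, starting 82 and 72 bases before the start site. A CArG box was present in 1.63% of all 32851 promoter windows. The *Sp5* window held 2 TCF/LEF matches, 204 and 104 bases before the start, and the *T* window held 1, and 16.0% of all windows held at least 1. The *Fgf5* window held 1 ETS match, as did 14.9% of all windows. *Notum*, *Ascl2* and *Tnfrsf19* were chosen by rule among the WNT targets with the lowest ratios, and *Notum* had no window to search. The *Ascl2* window had no match, and 1 of 2 *Tnfrsf19* windows had a TCF/LEF match, but neither gene reached 2-fold and their sequences are not shown. A match is a description of the letters and says nothing about binding in these cells.

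Among FGF ligands and receptors, 6 of 11 measured genes were at least 2-fold higher in DMSO and 2 were lower. The log2 ratios ran from -2.22 to 5.21. With ratios centred on the median gene, 5 were higher and 3 lower, and with the length trend removed, 6 and 3. *Fgf5*, a ligand switched on in the epiblast after implantation, was at 9.91 TPM in DMSO and 0.170 TPM in ESC, a ratio of 58.4 (31.4 to 123). *Fgf17* was at 86.0 TPM in DMSO and 6.93 TPM in ESC, and *Fgf15* was at 67.2 TPM in DMSO and 8.40 TPM in ESC. *Fgf4*, the autocrine ligand of ESCs, was lower in level, at 134.4 TPM in DMSO and 266 TPM in ESC, just short of 2-fold. The main receptor *Fgfr1* was at 59.6 TPM in DMSO and 70.4 TPM in ESC, and *Fgfr2*, a receptor linked to primitive endoderm, was at 8.48 TPM in DMSO and 1.96 TPM in ESC.

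Targets of WNT signaling were called in both directions. Of 20 listed, 13 were measured, 4 were at least 2-fold higher in DMSO and 2 were lower, and the median log2 ratio was 0.52. *T*, which encodes Brachyury, was at 5.55 TPM in DMSO and 0.104 TPM in ESC (200 reads in DMSO and 5 in ESC), a ratio of 53.4 (22.5 to 166). *Sp5*, a transcription factor induced by β-catenin, was at 5.36 TPM in DMSO and 0.122 TPM in ESC, a ratio of 44.1 (19.9 to 122). *Lef1*, the β-catenin partner that is itself a target, was at 30.4 TPM in DMSO and 5.07 TPM in ESC. *Nkd2*, a feedback inhibitor, was at 3.60 TPM in DMSO and 0.739 TPM in ESC.

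The 2 lower WNT targets were secreted or membrane inhibitors of the pathway. *Notum*, a lipase that inactivates WNT ligands, was at 32.3 TPM in DMSO and 88.3 TPM in ESC, a ratio of 0.366 (0.342 to 0.390). *Apcdd1*, a membrane inhibitor, was at 2.54 TPM in DMSO and 13.01 TPM in ESC. *Axin2*, the most general feedback target, was at 6.79 TPM in DMSO and 4.32 TPM in ESC, a ratio of 1.57 (1.38 to 1.79) that did not reach 2-fold. *Znrf3*, *Kremen1*, *Tcf7*, *Nkd1*, *Tnfrsf19* and *Ascl2* also stayed within 2-fold, with ratios of 0.752 to 1.96. *Wnt3*, the ligand that acts upstream of *T* in the embryo, was at 3.01 TPM in DMSO and 0.0682 TPM in ESC.

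None of the 10 TCF factors and components of the β-catenin complex reached 2-fold. *Ctnnb1*, which encodes β-catenin, was at 507 TPM in DMSO and 476 TPM in ESC. *Tcf7l1*, the repressor of naive genes, was at 105.8 TPM in DMSO and 178 TPM in ESC, and *Gsk3b*, the target of CHIR99021, was at 15.0 TPM in DMSO and 15.1 TPM in ESC.

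**Figure D3:**
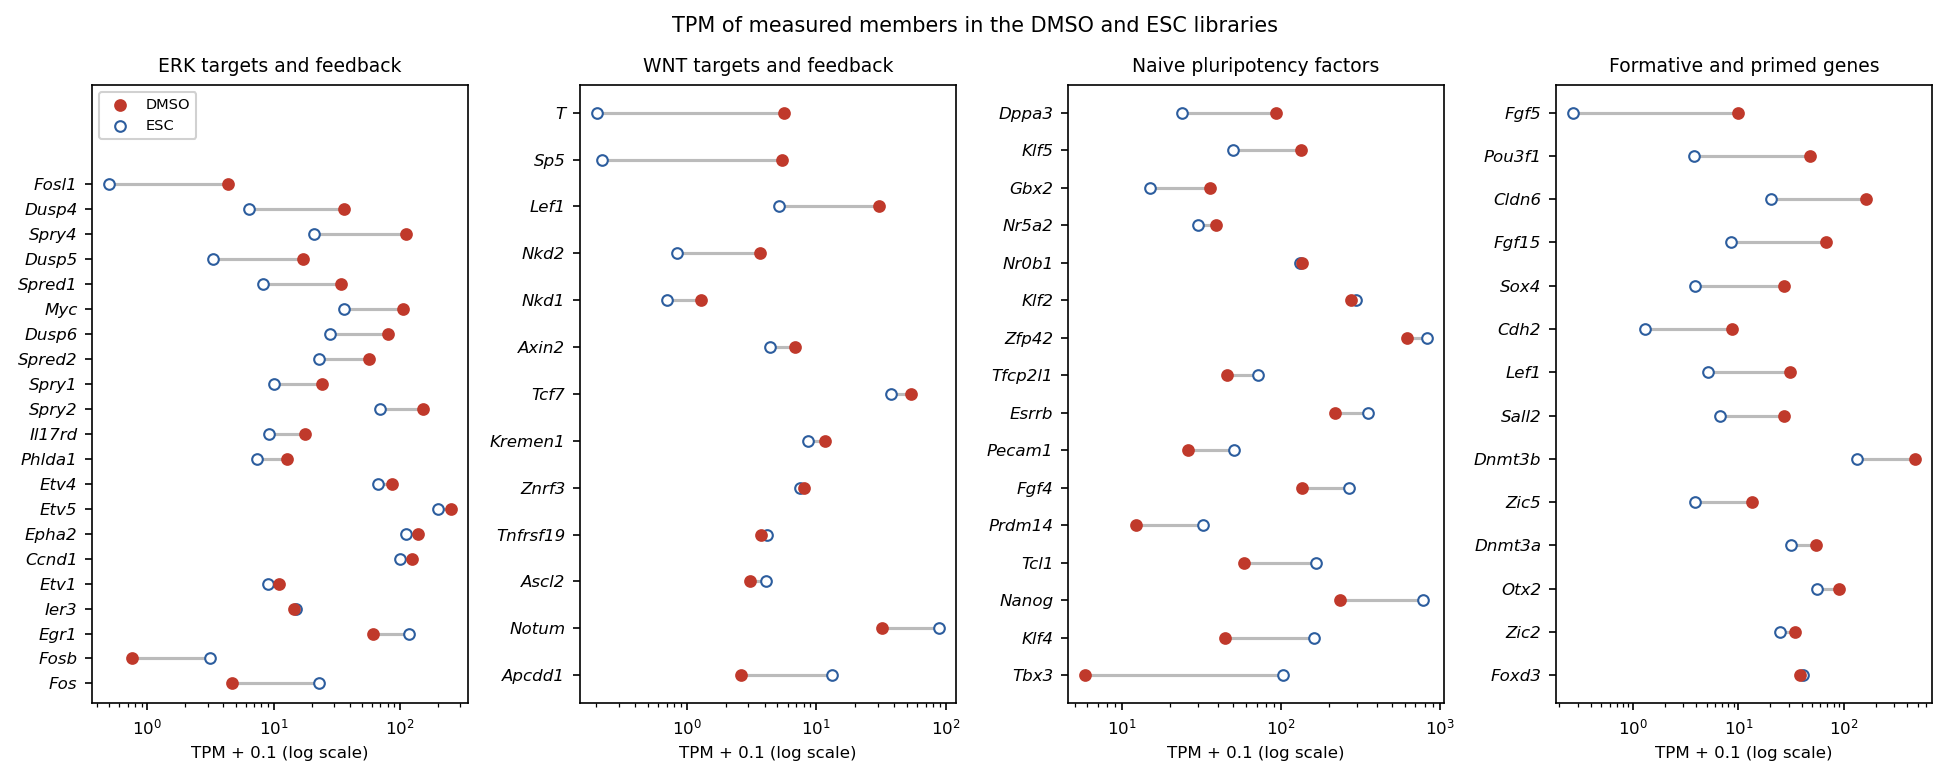
TPM after adding 0.1 TPM (horizontal axis, log scale) of measured members of 4 gene lists, with filled red points for the DMSO library, open blue points for the ESC library and a grey line joining them, sorted by ratio. The feedback genes *Dusp4*, *Spry4* and *Dusp5* and nearly all formative genes lie higher in DMSO, while *Tbx3*, *Klf4* and *Nanog* lie lower.

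Naive pluripotency factors were lower in DMSO more often than all genes were. All 16 were measured, with a median log2 ratio of -0.68. At least 2-fold lower in DMSO were 5, or 31.25% against 9.02% of all genes. Another 3 were higher, 18.75%, near the 15.6% of all genes. *Tbx3*, a T-box factor that promotes self-renewal, had the largest difference, with 5.72 TPM in DMSO and 102.8 TPM in ESC, a ratio of 0.0556 (0.0507 to 0.0609). *Nanog*, the homeobox factor that marks naive cells, was at 236 TPM in DMSO and 778 TPM in ESC, a ratio of 0.303 (0.296 to 0.310). *Klf4*, a LIF target, was at 44.5 TPM in DMSO and 160.6 TPM in ESC. *Prdm14*, which represses FGF receptors and DNA methyltransferases, was at 12.1 TPM in DMSO and 32.2 TPM in ESC, and *Tcl1*, a coactivator of AKT, was at 58.5 TPM in DMSO and 165 TPM in ESC.

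The 3 higher members were *Dppa3*, which encodes the maternal factor STELLA (92.7 TPM in DMSO and 23.8 TPM in ESC), *Klf5* (133.5 TPM in DMSO and 49.3 TPM in ESC) and *Gbx2* (35.4 TPM in DMSO and 14.8 TPM in ESC). The other 8 stayed within 2-fold. *Zfp42*, known as Rex1, was at 617 TPM in DMSO and 827 TPM in ESC, and *Esrrb*, an orphan receptor under TCF7L1 control, was at 217 TPM in DMSO and 354 TPM in ESC. *Klf2* had a ratio of 0.918 and *Nr0b1* one of 1.02. With the trend along gene length removed, 9 members counted as lower.

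None of the 12 core pluripotency factors was called in either direction. Their ratios ran from 0.687 for *Trim28*, a corepressor of retroviral elements, to 1.95 for *Zfp281*, a zinc finger factor of the primed transition. *Lin28a*, an RNA-binding protein of pluripotent cells, was at 380.0 TPM in DMSO and 239.9 TPM in ESC.

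Genes of the formative and primed states were higher in DMSO. All 15 were measured, 11 passed 2-fold upward and 0 downward, with a median log2 ratio of 2.02. *Pou3f1*, which encodes OCT6, was at 47.8 TPM in DMSO and 3.69 TPM in ESC, a ratio of 12.96 (11.4 to 14.8). *Dnmt3b*, a de novo DNA methyltransferase, was at 472 TPM in DMSO and 134.5 TPM in ESC. *Sox4*, *Cdh2*, which encodes N-cadherin, *Sall2* and *Zic5* had ratios of 7.21, 7.17, 4.10 and 3.53. *Otx2*, an early driver of the formative state, was at 90.8 TPM in DMSO and 55.6 TPM in ESC, within 2-fold, as were *Dnmt3a*, *Zic2* and *Foxd3*. Under every alternative applied, between 10 and 13 of the 15 were higher and none was lower.

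Some of these genes were lower in DMSO than in EpiLCs and others were not. *Fgf5* was at 9.91 TPM in DMSO, 10.4 TPM in the EED226 library, 75.5 TPM in EpiLCs and 0.170 TPM in ESC. *Dnmt3b* was at 472 TPM in DMSO, 366 TPM with EED226, 446 TPM in EpiLCs and 134.5 TPM in ESC. *Lef1*, *Fgf15* and *Cdh2* were at 30.4, 67.2 and 8.53 TPM in DMSO at 11.2, 32.5 and 1.54 TPM in EpiLCs, and at 5.07, 8.40 and 1.19 TPM in ESC.

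**Figure D4:**
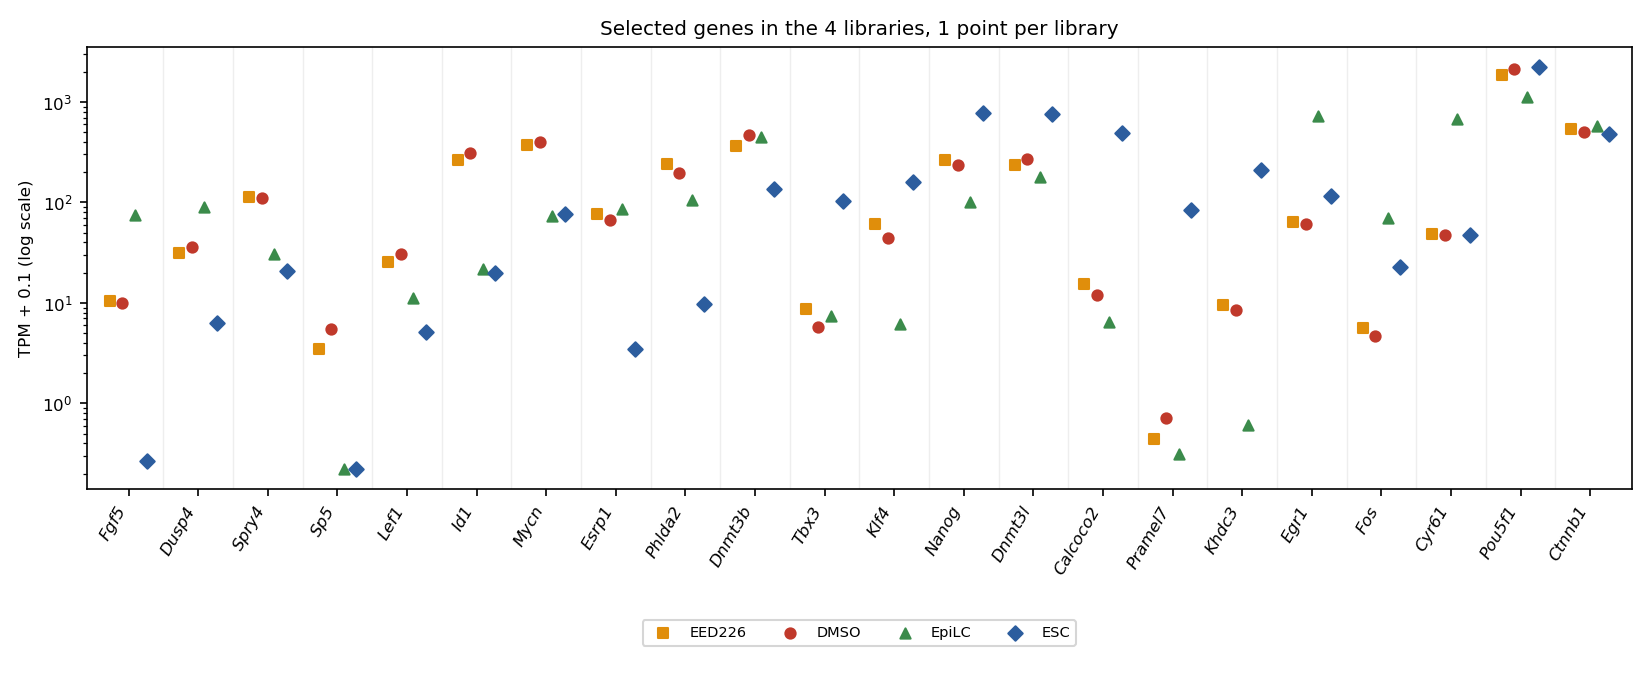
TPM after adding 0.1 TPM (log scale) of selected genes in the EED226, DMSO, EpiLC and ESC libraries, 1 point per library and gene. The EED226 and DMSO points lie close to each other, and *Tbx3*, *Calcoco2* and *Khdc3* stand higher in the ESC library than in the 3 others.

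The LIF pathway showed no common direction. Of 17 measured members, 4 were at least 2-fold higher in DMSO and 1, *Klf4*, was lower (2 with the trend along length removed), and the median log2 ratio of 0.18 equalled that of all genes. *Socs3*, the feedback inhibitor of STAT3, was at 86.8 TPM in DMSO and 46.9 TPM in ESC, within 2-fold, while *Socs2* was at 67.4 TPM in DMSO and 23.9 TPM in ESC and *Cish*, a related inhibitor, was at 8.12 TPM in DMSO and 3.34 TPM in ESC. *Junb* and *Gbx2* were the other higher members. *Stat3* itself was at 63.2 TPM in DMSO and 55.8 TPM in ESC, and *Lifr*, the receptor, was at 16.7 TPM in DMSO and 20.6 TPM in ESC.

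In the BMP pathway, genes were called at shares near the background. Of 14 genes, 2 were at least 2-fold higher in DMSO, 14.3% against 15.6% of all genes. 1 was lower, 7.14% against 9.02%. *Id1*, an inhibitor of differentiation factors and a direct BMP target, was at 314 TPM in DMSO and 19.8 TPM in ESC, a ratio of 15.9 (14.4 to 17.5), and *Id2* was at 127.7 TPM in DMSO and 22.2 TPM in ESC. *Id3* was at 88.2 TPM in DMSO and 70.1 TPM in ESC, and the ligand *Bmp4* was at 28.6 TPM in DMSO and 30.8 TPM in ESC. *Smad6*, an inhibitor of the pathway, was at 2.64 TPM in DMSO and 6.79 TPM in ESC. With ratios centred on the median gene, 3 genes of this list were lower.

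The Nodal pathway had 2 of 13 measured genes higher, 15.4% against 15.6% of all genes. It had 2 lower, 15.4% against 9.02%. *Skil*, which encodes the SMAD corepressor SNON, was at 95.7 TPM in DMSO and 11.6 TPM in ESC, and *Acvr2b*, a receptor, had a ratio of 2.07 that fell short of 2-fold with centring on the median gene. *Nodal* was at 56.2 TPM in DMSO and 115.7 TPM in ESC, and *Lefty2*, its secreted inhibitor, was at 65.0 TPM in DMSO and 136 TPM in ESC.

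Epithelial genes had one of the highest medians of the lists. The list held junction and keratin genes, regulators such as *Esrp1*, and the mesenchymal gene *Vim*. All 18 were measured, 12 were at least 2-fold higher in DMSO and 1 was lower, with a median log2 ratio of 1.596. *Esrp1*, a splicing factor of epithelial cells, was at 66.4 TPM in DMSO and 3.39 TPM in ESC, a ratio of 19.6 (17.5 to 22.0). *Cldn7*, a tight junction protein, was at 41.0 TPM in DMSO and 2.34 TPM in ESC, and *Grhl2*, a regulator of epithelial junction genes, was at 42.0 TPM in DMSO and 4.72 TPM in ESC. *Cdh1*, which encodes E-cadherin and was named after its values were seen, was at 506 TPM in DMSO and 211 TPM in ESC. *Vim*, the mesenchymal intermediate filament, was the lower member, at 157 TPM in DMSO and 417 TPM in ESC.

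Contractile genes under SRF and YAP were partly higher, with 6 of 15 at least 2-fold higher and 1 lower. *Tagln* was at 104 TPM in DMSO and 13.5 TPM in ESC, and *Ankrd1* and *Cnn1* had ratios of 9.50 and 4.65. *Cyr61*, a secreted YAP target, had nearly equal levels, at 47.5 TPM in DMSO and 47.6 TPM in ESC. *Lats2*, a kinase that restrains YAP, was the lower member, at 1.83 TPM in DMSO and 5.47 TPM in ESC.

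Fibroblast genes, which would mark feeder cells, were measured for 11 of 14 listed, 5 of them at least 2-fold higher in DMSO and none lower. *Col1a2* was at 19.2 TPM in DMSO and 8.29 TPM in ESC, *Postn* at 2.27 TPM in DMSO and 0.374 TPM in ESC, and *Thy1* at 10.996 TPM in DMSO and 3.48 TPM in ESC. *Col1a1*, the main fibroblast collagen, was at 21.1 TPM in DMSO and 19.03 TPM in ESC. The defining markers *Dcn*, *Lum* and *Mgp* lay between 0.0274 and 0.664 TPM in DMSO and between 0.0205 and 0.710 TPM in ESC. The summed level of the measured list was 405 TPM in DMSO and 384 TPM in ESC, most of it from *Fn1*, which ESCs also express. With the trend along length removed, 2 members were higher. The part of feeder cells in the other results was not tested.

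Markers of differentiated lineages were measured only in part. Of 16 primitive endoderm genes, 7 were measured. *Col4a1*, *Col4a2* and *Sparc*, matrix genes of that lineage, were lower in DMSO (*Sparc* at 154 TPM in DMSO and 456 TPM in ESC), *Lamb1* was higher (84.3 TPM in DMSO and 9.97 TPM in ESC), and the defining factors *Gata6* and *Sox17* stayed under 1 TPM in both. Once the length trend was taken out, 5 members of this list were lower. Of 13 neural genes, 7 were measured and 4 were higher, among them *Sox11* at 13.2 TPM in DMSO and 1.67 TPM in ESC, and *Sox1* was lower, at 1.53 TPM in DMSO and 6.05 TPM in ESC. Mesoderm genes had 7 of 14 measured, with *T* and *Wnt3* higher and *Gsc* and *Kdr* lower. Trophoblast genes had 8 of 13 measured, with *Tfap2c* (26.6 TPM in DMSO and 5.46 TPM in ESC) and *Krt7* higher and *Gata3* (0.477 TPM in DMSO and 5.71 TPM in ESC) and *Esx1* lower.

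The genes of DNA methylation and imprint maintenance were called at shares near the background. Of 12 measured, 2 were at least 2-fold higher in DMSO, 16.7% against 15.6% of all genes. 1 was lower, 8.33% against 9.02%. *Tet1*, which oxidizes methylated cytosine, was at 102.3 TPM in DMSO and 50.1 TPM in ESC, beside *Dnmt3b*. *Dnmt3l*, the cofactor of the de novo enzymes, was at 272 TPM in DMSO and 765 TPM in ESC, a ratio of 0.355 (0.348 to 0.362). *Dnmt1*, the maintenance enzyme, was at 173.9 TPM in DMSO and 129 TPM in ESC, and *Uhrf1*, which guides it to replicated DNA, was at 251 TPM in DMSO and 441 TPM in ESC, both within 2-fold. With ratios centred on the median gene, 1 gene of this list was higher and 1 was lower, and with the trend along length removed, 1 was higher and 4 were lower.

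PRC2, the Polycomb complex that methylates H3K27, differed in 1 of 12 subunits. *Jarid2*, an accessory subunit, was at 311 TPM in DMSO and 135 TPM in ESC, a call that was lost once the length trend was taken out. The catalytic subunit *Ezh2* was at 155 TPM in DMSO and 154 TPM in ESC, *Suz12* was at 132 TPM in DMSO and 113 TPM in ESC, and *Eed* was at 258 TPM in DMSO and 327 TPM in ESC. Among 23 regulators that Polycomb often silences, 12 were measured, 3 were higher and 6 were lower. *Wt1*, which encodes a zinc finger factor of kidney and gonad development, was among the higher ones, at 7.80 TPM in DMSO and 0.632 TPM in ESC. Of the lower ones, *Cdkn2a* was at 11.3 TPM in DMSO and 39.2 TPM in ESC, and *Hoxd9* was at 0.0811 TPM in DMSO and 1.92 TPM in ESC. *Hoxc4* had 1 read in DMSO, a ratio of 0.0226 (0.000564 to 0.131).

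Imprinted genes, expressed from 1 parental allele, were often higher. Of 20 measured among 25 listed, 10 were at least 2-fold higher in DMSO and 1 was lower, with a median log2 ratio of 0.99. *Phlda2*, a growth restrictor of the placenta, was at 197 TPM in DMSO and 9.57 TPM in ESC, a ratio of 20.6 (17.6 to 24.2). *Grb10*, *Nnat*, *Cdkn1c* and *Peg3* had ratios of 6.03, 5.65, 5.35 and 5.17. *Plagl1*, a zinc finger factor, was the lower member, at 3.90 TPM in DMSO and 30.0 TPM in ESC. With the trend along length removed, 6 were higher.

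Germline genes were called in both directions, with 6 of 15 higher and 3 lower. *Tdrd1*, a piRNA pathway component, was at 4.21 TPM in DMSO and 0.0312 TPM in ESC (404 reads in DMSO and 4 in ESC), a ratio of 135 (52.3 to 498). *Ddx4*, the germ cell helicase VASA, was at 21.9 TPM in DMSO and 2.43 TPM in ESC. *Dazl*, an RNA-binding protein of germ cells, was at 3.51 TPM in DMSO and 13.2 TPM in ESC, and *Sohlh2* and *Hormad1* were also lower.

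Growth and metabolism genes gave a mixed picture. *Mycn* was at 397 TPM in DMSO and 77.4 TPM in ESC, a ratio of 5.13 (4.97 to 5.30), and *Mycl* was at 13.6 TPM in DMSO and 30.4 TPM in ESC, while none of the MYC target genes on the list was called. *Ccnd2*, a G1 cyclin, was at 13.6 TPM in DMSO and 1.25 TPM in ESC, and *Cdkn1a*, which encodes the inhibitor p21, was at 35.6 TPM in DMSO and 76.1 TPM in ESC. Among ATF4 and amino acid response genes, 7 of 19 were higher and none was lower, with *Chac1*, which degrades glutathione, at 45.6 TPM in DMSO and 2.90 TPM in ESC, and the serine synthesis enzymes *Psat1* and *Phgdh* at ratios of 2.87 and 2.79. None of 19 oxidative phosphorylation genes and none of 76 cytosolic ribosomal protein genes was called, although centring on the median gene brought 1 oxidative phosphorylation gene to 2-fold lower. In glycolysis, *Pdk1* was higher and *Hk1* was lower (15.8 TPM in DMSO and 54.1 TPM in ESC) among 17 genes, and the call of *Pdk1* was lost when ratios were centred and also when the length trend was taken out. *Mt1* and *Mt2*, the metallothioneins, were at 1004 and 1644 TPM in DMSO and at 373 and 583 TPM in ESC.

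Replication-dependent histone genes were often lower in DMSO, with 19 of 37 measured lower and 2 higher. Many of these calls rested on few reads. *Hist1h2ak* had 1 read in DMSO and 17 in ESC, and *Hist1h4f* had 1 in DMSO and 15 in ESC. Some calls in both directions had counting intervals that included 1. The mRNAs of replication-dependent histone genes mostly lack a poly(A) tail, which the library kit selects for. The summed level of the measured genes was 63.9 TPM in DMSO and 109 TPM in ESC. With the trend along gene length removed, 15 were lower, and *Hist1h2ag* had no reads in DMSO and 1.08 TPM in ESC.

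The glycosylation genes that the study set out to follow were called at shares near the background. Of 214 genes, 160 were measured, 30 were at least 2-fold higher in DMSO, 18.8%, and 17 were lower, 10.6%. These became 24 higher and 22 lower once the length trend was taken out. Among genes of glycosaminoglycan synthesis, 11 of 36 were higher and 4 were lower, or 7 higher and 4 lower with the trend along length removed, and *Has2*, a hyaluronan synthase, was at 4.39 TPM in DMSO and 0.210 TPM in ESC. Among glycosphingolipid genes, 1 of 10 was higher and 3 were lower, the higher being *Ugt8a*, which makes galactosylceramide, at 7.76 TPM in DMSO and 1.35 TPM in ESC, and *A4galt*, the globoside pathway enzyme, was at 9.09 TPM in DMSO and 21.2 TPM in ESC. The sialyltransferase genes of the terminal capping class lay in both groups. *St8sia5* was at 0.135 TPM in DMSO and 6.22 TPM in ESC, *St6gal2* was at 4.26 TPM in DMSO and 0.243 TPM in ESC, and *St6gal1*, which adds α2,6-linked sialic acid to N-glycans, was at 9.92 TPM in DMSO and 3.36 TPM in ESC. *Galnt3*, an enzyme that starts O-glycans, was at 3.99 TPM in DMSO and 0.0923 TPM in ESC. *Chst1* had no reads in ESC and 132 in DMSO, where it was at 2.79 TPM. This was 58.8-fold higher if the ESC library is set to a floor of 3 reads. The lower limit of its counting interval was 47.1.

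**Figure D5:**
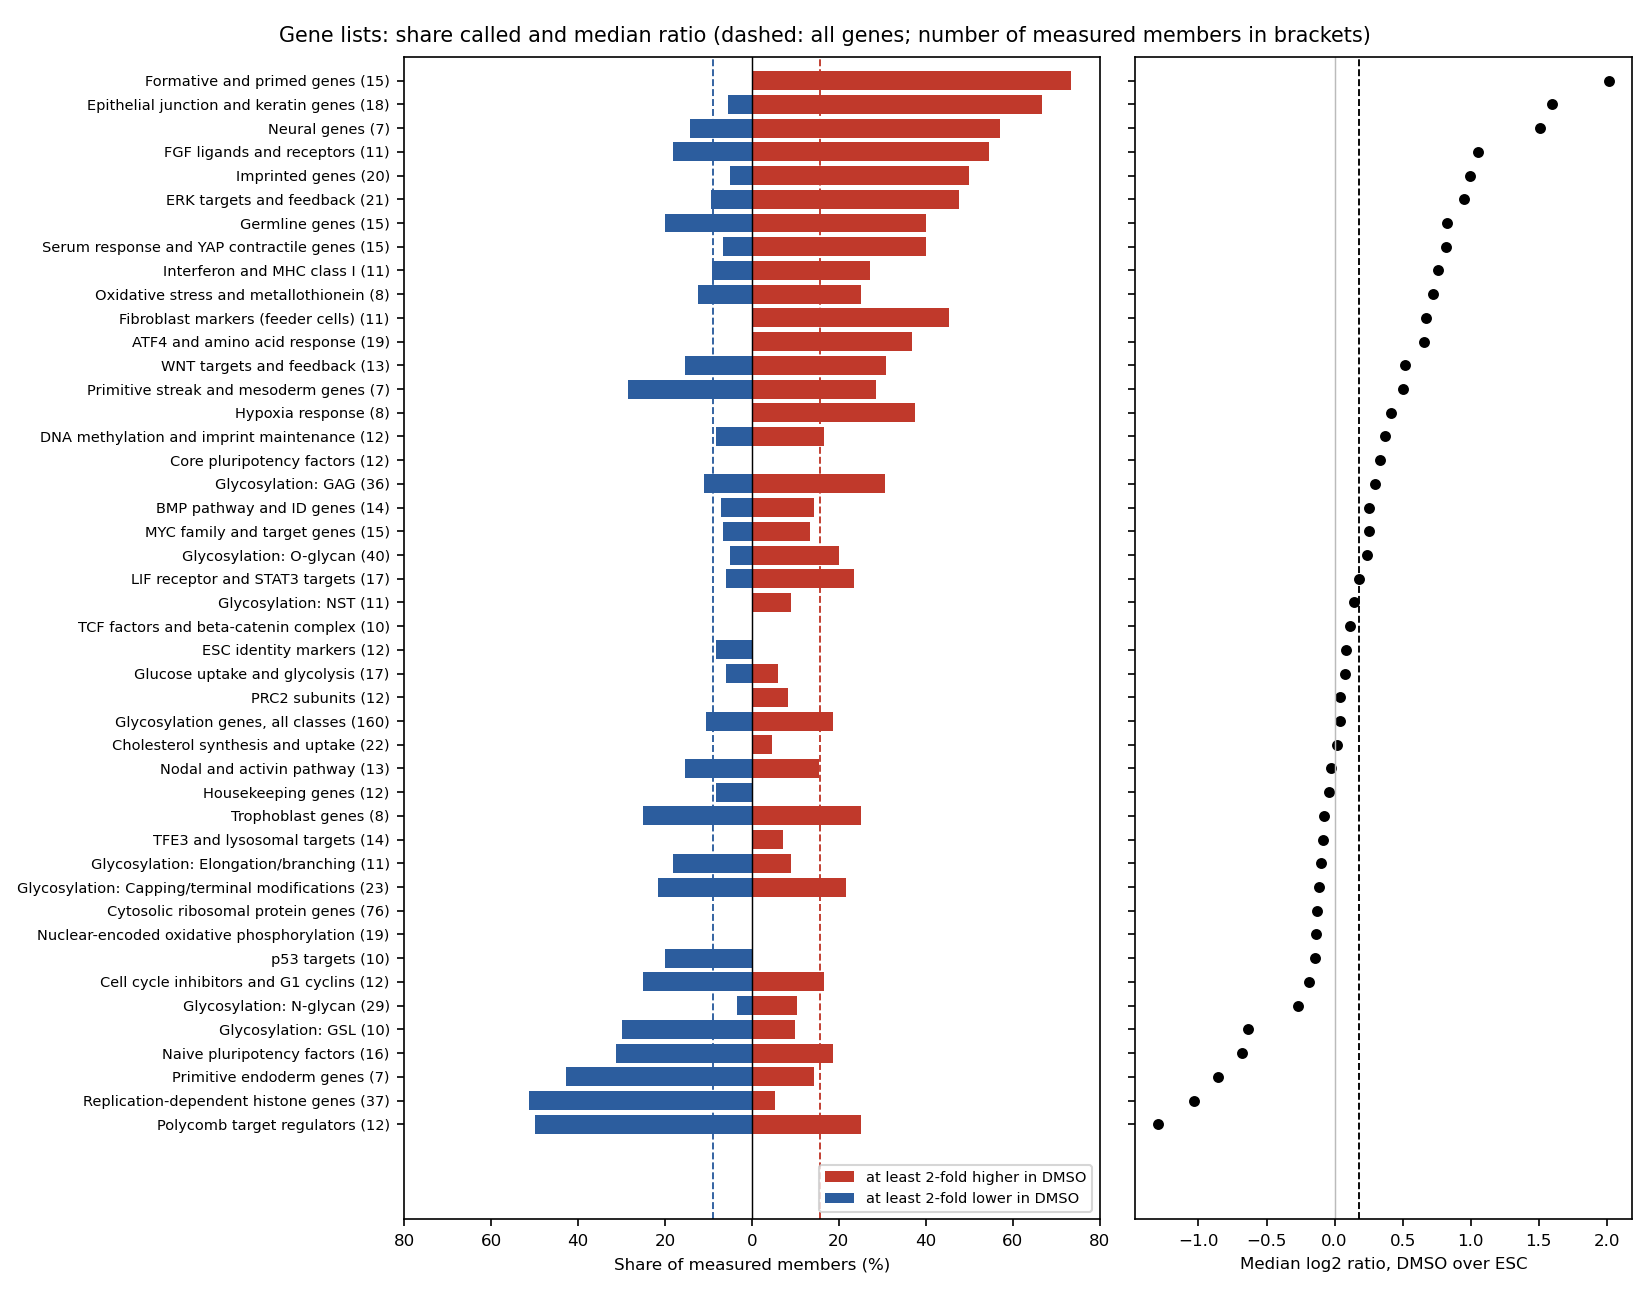
Share of measured members at least 2-fold higher (red, to the right) and lower (blue, to the left) in DMSO for each gene list with at least 7 measured members, and the median log2 ratio of the list (points), with dashed lines at the values of all genes. Formative, epithelial, neural, FGF, imprinted and ERK lists lie at the top, and naive factors, primitive endoderm genes, histone genes and Polycomb targets lie at the bottom.

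Across all genes with at least 10 TPM in either library, the lowest ratios included several genes of the PRAME family. *Pramel7*, which directs UHRF1 for degradation in naive cells, was at 0.611 TPM in DMSO and 84.2 TPM in ESC (20 reads in DMSO and 3687 in ESC), a ratio of 0.00725 (0.00442 to 0.0112). It lies on chromosome 2, 87489087 to 87497093, of GRCm38, next to *Pramel6*, at 0.516 TPM in DMSO and 33.8 TPM in ESC. *Gm13128* and *Pramef17*, further members of the PRAME family, were at 0.163 and 0.0976 TPM in DMSO and at 29.0 and 15.7 TPM in ESC. Of the 7 PRAME family genes with at least 1 TPM in either library, a set formed after the values were seen, 5 were at least 2-fold lower and 1, *Pramel1*, was higher. These genes resemble each other, so reads may have been shared among copies.

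The other genes at the low end differed in kind. *Calcoco2*, which encodes the autophagy receptor NDP52, had the highest ESC level of the 20 genes with the lowest ratios, at 11.9 TPM in DMSO and 493 TPM in ESC, a ratio of 0.0241 (0.0218 to 0.0265). *Khdc3*, part of the maternal complex of the oocyte, was at 8.45 TPM in DMSO and 211 TPM in ESC. *Ly6a*, the surface antigen SCA1, was at 5.89 TPM in DMSO and 148.5 TPM in ESC, and *Crxos*, a homeobox gene, was at 0.0957 TPM in DMSO and 15.9 TPM in ESC. The pseudogene *2210409E12Rik* (3.77 TPM in DMSO and 363 TPM in ESC), the chemokine gene *Ccl25* (3.92 TPM in DMSO and 120.5 TPM in ESC) and *Arl14epl* (2.48 TPM in DMSO and 118 TPM in ESC) belonged to the same end.

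At the high end, *Gbp2*, an interferon-inducible GTPase, had 607 reads in DMSO and none in ESC. It was at 14.04 TPM in DMSO, 270.3-fold higher if the ESC library is set to a floor of 3 reads. The lower limit of its counting interval was 219. Its neighbour and paralog *Gbp2b*, with 482 reads in DMSO and none in ESC, was 215-fold higher against the same floor. Reads may have been shared between both. *Isg15* and *Oasl2*, further interferon-inducible genes, had no reads in ESC and were at 2.85 and 1.54 TPM in DMSO. Of 11 measured interferon and MHC class I genes, 3 were higher and 1, *H2-D1*, was lower.

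*Tmem54* followed at 16.3 TPM in DMSO and 0.182 TPM in ESC, a ratio of 89.8 (38.1 to 278). *Vrtn* was at 25.97 TPM in DMSO and 0.377 TPM in ESC, and *Kif1a*, a motor protein of axonal transport, was at 19.3 TPM in DMSO and 0.317 TPM in ESC. *Car4*, a membrane-bound carbonic anhydrase, was at 23.1 TPM in DMSO and 0.425 TPM in ESC, *Enpp2*, the secreted lipase autotaxin, was at 17.0 TPM in DMSO and 0.460 TPM in ESC, and *Epha1*, an ephrin receptor, was at 24.1 TPM in DMSO and 1.17 TPM in ESC. *Snord64* and *Mir363*, with 46 and 75 bases of gene length, were also among the 20 highest, with only 62 and 41 reads in DMSO and 4 and 3 in ESC.

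In all, 41 genes with at least 1 TPM in DMSO had no reads in ESC, but 29 of them were entries under 200 bases, such as miRNAs and small nucleolar RNAs, with 1 to 11 reads in DMSO, and 15 of these had DMSO levels under the ESC floor of 3 reads. Of the 41, 18 also reached 1 TPM in both the EED226 and the EpiLC library, and 10 of those were such short entries. Conversely, 37 genes with at least 1 TPM in ESC had no reads in DMSO, 17 of them short entries with 2 to 8 reads in ESC. *Stk33*, a kinase with 230 reads in ESC, was at 4.08 TPM in ESC, 57.4-fold above the DMSO floor of 3 reads.

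By difference in TPM, the largest increases in DMSO were *Mt2* and *Trh*, the precursor of thyrotropin-releasing hormone, at 1263 TPM in DMSO and 313 TPM in ESC. The largest decreases included ribosomal protein genes such as *Rps29* (4479 TPM in DMSO and 5798 TPM in ESC), with ratios short of 2-fold, and *Hspb1*, a small heat shock protein, at 404 TPM in DMSO and 1626 TPM in ESC.

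The EED226 library, made from cells in the same LIF medium, gives values to set beside those of DMSO. In EED226 over ESC, 2678 of 13114 genes were at least 2-fold higher, or 20.4%, and 1014 were lower, or 7.73%. Both comparisons share the ESC library. In EED226 over DMSO, 146 of 12763 genes were higher, or 1.14%, and 48 were lower, or 0.376%. *Tbx3* was at 8.65 TPM with EED226, 5.72 TPM in DMSO and 103 TPM in ESC. *Nanog* was at 264 TPM with EED226, 236 TPM in DMSO and 778 TPM in ESC, and *Dusp4* was at 31.4 TPM with EED226, 36.2 TPM in DMSO and 6.23 TPM in ESC. *Cdkn2a*, a classic Polycomb target, was at 32.6 TPM with EED226, 11.3 TPM in DMSO and 39.2 TPM in ESC. In EpiLCs over ESC, 3946 of 13535 genes were higher, or 29.2%, and 1572 were lower, or 11.6%.

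*Egr1* and *Fos* had their highest values in the EpiLC library. *Egr1* was at 61.1 TPM in DMSO, 63.3 TPM with EED226, 726 TPM in EpiLCs and 116.7 TPM in ESC, and *Fos* was at 4.61 TPM in DMSO, 5.57 TPM with EED226, 70.4 TPM in EpiLCs and 22.7 TPM in ESC. *Dusp6* was also highest in EpiLCs, at 189 TPM, with 80.1 TPM in DMSO, 81.8 TPM with EED226 and 27.6 TPM in ESC. Unlike *Egr1* and *Fos*, it was higher in DMSO than in ESC.

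Whether the counting used strand is not stated. Over 50% of the exonic bases of *Fosl1*, *Tagln*, *Sox4*, *Mt2* and *Sycp3* lie under exons of a gene on the opposite strand in GENCODE M21. If strand was not used, their reads and those of the partner cannot be told apart.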

How the data were processed

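RNA-seq libraries of mouse R1 ESCs (stranded mRNA kit, 100 bp single reads) were analysed as deposited. Tools listed by the submitters are featureCounts 1.6.2, STAR 2.6.0a, Bowtie2 2.2.4 and bcl2fastq 2.20, with mm10 as the build. The authors deposited 1 table for 4 libraries, giving each gene's read count, that count divided by gene length, and TPM, and the deposited TPM was recomputed from the counts and lengths without a difference beyond rounding. The 2 entries sharing 1 symbol were left out.

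Libraries were grouped by their labels, with 1 per group, so no count test was run. Each TPM ratio has an exact 95% interval from the read split. Calls used 2-fold after adding 0.1 TPM, among genes with at least 1 TPM in either library. The floor for a library without reads was 3 reads. The members and gene lists were chosen with earlier results of these data known. The 45 lists were matched by symbol, with 6 names matched regardless of case, 6 by RefSeq synonym and 3 unmatched.

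Genes were named if they belonged to the ERK, WNT, LIF, naive, core, formative, DNA methylation, PRC2, ESC or fibroblast lists, to the 5 highest or lowest ratios of another list, to the 20 highest or lowest ratios of all genes with at least 10 TPM, or to the 10 largest differences in TPM. A few list members are counted but not reported here by name. Other named genes (*Cdh1*, *Gbp2b*, *Stk33*, *Pramel1*, *Id3*, *Bmp4*) were chosen after their values were seen. Promoters were taken by rule for up to 3 ERK targets with the highest and 3 WNT targets with the lowest ratios, none on chromosome 18, and 13 more genes were searched after the values were seen. Positions came from GENCODE M21 (GRCm38). Alternatives varied the fold, pseudocount, filter, centring, length trend, counting interval and, added after seeing the data, short entries. Scripts ran in Python 3.11.15 with scipy 1.17.1, statsmodels 0.14.6, pandas 2.3.3, numpy 2.4.6 and matplotlib 3.10.9, and were tested on simulated data.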

Additional observations from a re-analysis of the deposited data

How the results depend on the processing

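No paired analysis was possible because each group has 1 library, and leaving out a library was not possible for the same reason. At 1.5-fold in place of 2-fold, 3655 genes were higher and 1956 lower in DMSO, and 9 naive factors were lower in place of 5. With at least 5 TPM in either library, 1158 genes were higher, 711 were lower and 1 ERK target, *Fos*, was lower. With no filter on TPM, 2988 genes were higher, 1755 were lower and 7 WNT targets were higher. With the trend along gene length removed, 9 naive factors were lower. Of 82 values recomputed for the counts over all genes and for the ERK, WNT, naive and formative lists, 73 stayed within 1.5 times. Single genes were compared for measured members of all lists except glycosylation, ribosomal protein and histone genes, and for the genes with the most extreme ratios or differences. Of 188 such genes at 2-fold or more, 11 fell short of it after adding 1 TPM and 12 with centring on the median gene. With centring on a trimmed mean of log ratios 15 fell short, and with the length trend removed 15. Under the last 3 settings 11, 14 and 15 other genes of this set reached 2-fold. Centring on that trimmed mean gave 1554 genes higher and 1505 lower, so that higher genes made up 50.8% of calls. Requiring the counting interval to exclude 1 left 1959 genes higher and 1135 lower, so counting error limits few calls, whereas the spread between cultures is unknown.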
